A study of Rattus norvegicus with 19 samples.

Results

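The comparison set the 6 arrays of days 7 and 14 after a spinal cord lesion (the late pool) against the 6 arrays of days 1 and 3 (the early pool), 12 of the 19 arrays of the series. The pools were formed from the labelled times alone, 3 arrays a day, and all 31042 probe sets that are not array controls were tested. Every rat was an adult female of the inbred Fischer 344 strain. At all 4 times the dorsal columns had been severed with a wire knife at the third cervical segment, and deep motor cortex of the forelimb and hindlimb areas, with layer V in it, was dissected for total RNA. No transgene, drug or other agent is named in the labels. The 4 control arrays, all called control with no word on a sham operation, entered no test and are given as a background level; the 3 arrays of day 49 were not used in the comparison. The labels do not say that the arrays of a day came from separate rats, so p-values measure the spread between these arrays, which may be technical.

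In the rat the main corticospinal tract runs in the ventral part of the dorsal columns, so the lesion cuts axons whose cell bodies lie in layer V of the dissected cortex. Neurons with a cut axon pass through an early phase of stress and inflammatory signalling, shared by the glia around them, and can later switch on peptides and cytoskeletal proteins that are scarce in intact adult neurons. Setting the second week against the first days asks which transcripts separate these phases. A difference between pool means can also come from 1 day alone, so single days are compared as well.

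One array of the late pool, day14 replicate 2, stood apart. RNA breakage raises the log2 gap between probe sets at the 3' and 5' ends of a transcript, and for beta-actin this gap was 2.24 on this array, against 0.890 to 1.26 on the other 11. For GAPDH it was 3.18 against at most 0.128. Its median correlation with the other arrays was 0.931, against 0.996 to 0.998 for the rest, so values of the pooled comparison below are for the 11 arrays without it unless all 12 are named. The split of each list described is given for both. The tissue label was checked on the 12 arrays: Mbp, of myelin, lay at the 99.6th percentile of all probe sets, Slc17a7, the vesicular transporter of cortical glutamatergic neurons, at the 83.3rd, and Crym, of deep projection neurons, at the 78.6th. Gad1 of inhibitory neurons was at 3.53 to 4.11, close to the floor of the scale, and Lum, a fibroblast proteoglycan of the meninges, lay at the 94.0th. Bcl11b, of corticospinal neurons, lay only at the 52.2nd. Gfap of astrocytes lay at the 48.6th, Aif1 at the 62.1st and Ttr at the 56.2nd. Level percentiles are set across probe sets that differ in response and are only a rough guide.

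No probe set passed the test between the pools. With 11 arrays limma called 0 of 31042 probe sets (0%) at an adjusted p of 0.05, the smallest adjusted p being 0.398, and 1809 (5.83%) had an unadjusted p under 0.05, 903 (2.91%) higher and 906 (2.92%) lower in the late pool. With 12 arrays it called 0 (0%), the smallest adjusted p was 0.779, and 1141 (3.68%) had an unadjusted p under 0.05, 712 (2.29%) higher and 429 (1.38%) lower. The arrays of the pools did not overlap for 137 probe sets (0.441%) with 11 arrays, 78 (0.251%) higher and 59 (0.19%) lower. With 12 arrays they did not for 82 (0.264%), 56 (0.18%) higher and 26 (0.0838%) lower. None of these counts shows that the pools were alike. Genes below are named with their values, none of which passed the test between the pools.

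Among the named genes the largest differences were those of 3 neuropeptide genes, a cytoskeletal gene known from injured peripheral neurons, and the clock gene Dbp, which is described with the other clock genes. Vip encodes vasoactive intestinal peptide, made in intact cortex by a class of interneurons. Its log2 signal was 4.01, 3.97 and 4.67 on the arrays of day 1 and 3.85, 4.43 and 3.84 on those of day 3. It was 4.08, 5.49 and 7.41 at day 7 and 7.14, 6.56 and 6.41 at day 14, where 6.56 belongs to day14 replicate 2. All day 14 arrays and 2 of the 3 day 7 arrays lay above every early array, and 1 day 7 array lay within the early range. The late pool was 3.94-fold higher (log2 difference 1.98, SE 0.46, limma adjusted p = 0.603 with 11 arrays), and the 4 control arrays lay between 3.77 and 4.05, beside the early pool. In bulk tissue more cells that express a gene and more RNA per cell cannot be told apart.

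Gal encodes galanin, a peptide induced in many axotomised neurons. Its signal was 7.06, 6.87 and 7.25 at day 1, 6.81, 7.17 and 7.15 at day 3, 7.15, 7.86 and 8.78 at day 7 and 8.46, 8.71 and 8.11 at day 14. The first array of day 7 again lay within the early range, and the other 5 late arrays lay above all early ones. The difference was 1.02 (SE 0.22, adjusted p = 0.540), or 2.02-fold, and 1.12 with all 12 arrays. Npy, neuropeptide Y, also an interneuron peptide in intact cortex, was at 6.24, 6.39 and 6.53 at day 1 and 6.55, 6.80 and 6.24 at day 3. At day 7 it was at 6.65, 7.01 and 9.03 and at day 14 at 8.53, 7.81 and 7.76, with a pool difference of 1.34 (SE 0.34, adjusted p = 0.674) or 2.53-fold. The control ranges overlapped the early ones and reached lower, at 6.52 to 6.85 for Gal and 6.03 to 6.58 for Npy.

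Csrp3, which encodes the muscle LIM protein, an actin-associated protein of striated muscle also found in injured neurons, followed the same arrays. It was at 4.50, 4.73 and 5.30 at day 1, 4.99, 5.05 and 4.68 at day 3, 4.72, 6.06 and 6.42 at day 7 and 6.91, 5.16 and 6.45 at day 14. The day 14 value of 5.16 is that of the array with broken RNA, and without it the difference was 1.24 (SE 0.30, adjusted p = 0.603), against 1.08 with it. In all 4 genes day7 replicate 1 was the lowest of the late arrays. When that array was also left out, 10 arrays remained and 4 probe sets were called (0 with it), all higher in the late pool: Csrp3 (1.59, adjusted p = 0.0132), Gal (1.25, adjusted p = 0.0181), Vip (2.48, adjusted p = 0.0192) and 1 without a symbol. This setting was 1 of 11 that left out an array each, and 9 of the 11 gave 0 calls, so these calls rest on the choice of arrays.

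**Figure D1:**
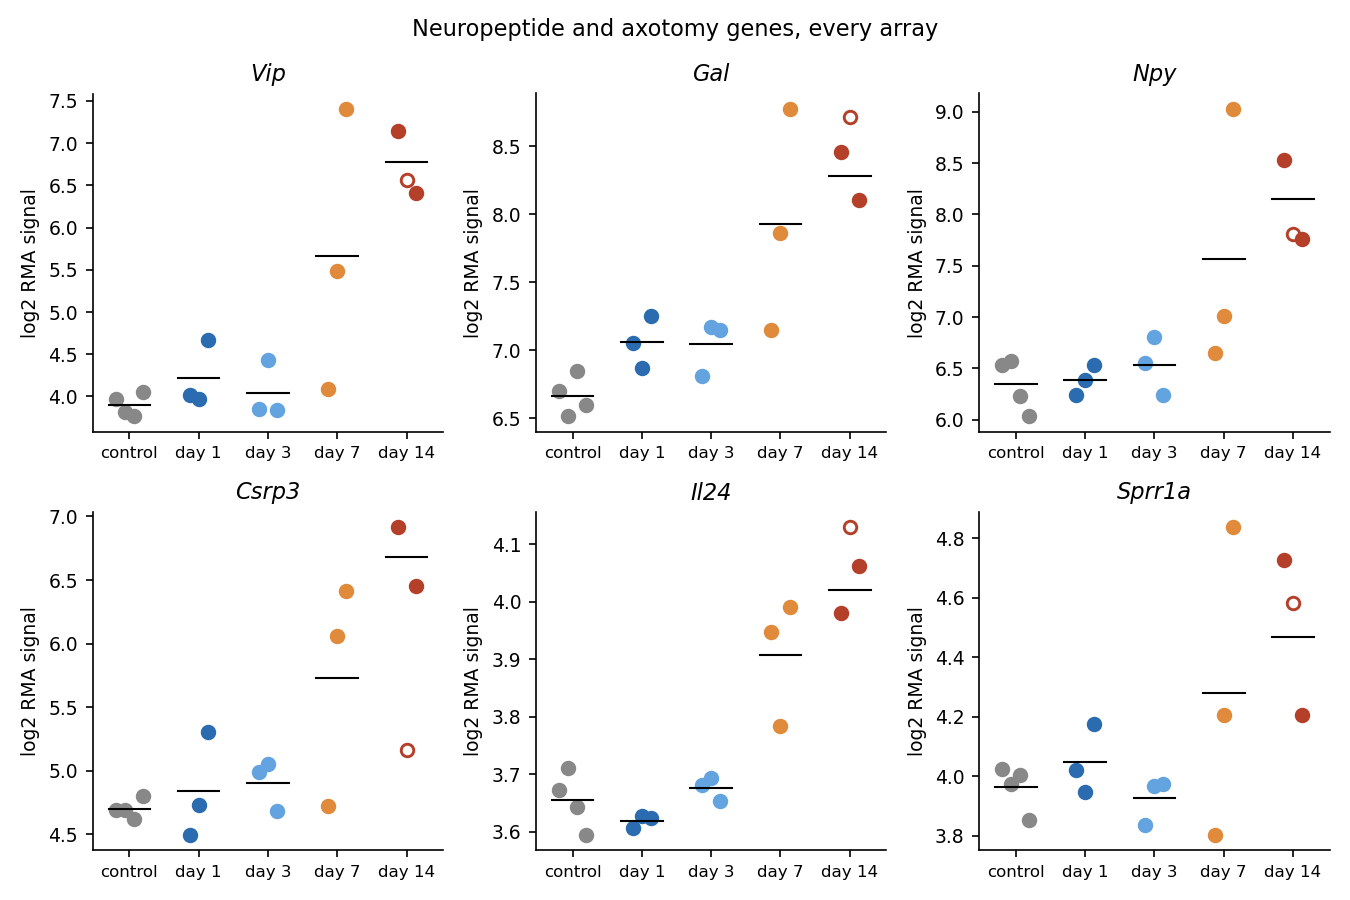
Log2 RMA signal (y axis) of Vip, Gal, Npy, Csrp3, Il24 and Sprr1a on each array of the control, day 1, day 3, day 7 and day 14 groups (x axis), 1 point per array; bars are group means without day14 replicate 2, which is drawn as an open circle. The day 7 arrays spread from the early level to the day 14 level in Vip (4.08 to 7.41), while the pools do not overlap in Il24.

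The other neuropeptides differed by far less. Of the 31 matched members of the list of neuropeptides and granins, 18 were higher and 13 lower in the late pool with a median difference of 0.01, beside 0.01 for all 14217 genes and 7746 of those higher. With all 12 arrays 26 of the 31 were higher with a median of 0.05, beside 8633 of all genes and 0.03. Apart from Vip, Npy and Gal the members lay between -0.20 (Bdnf) and 0.14 (Igf1), with somatostatin (Sst) by -0.05, cholecystokinin (Cck) by -0.07, the pituitary adenylate cyclase activating peptide (Adcyap1) by 0.06 and neurotensin (Nts) by 0.04. Bdnf and Igf1 are growth factors that stand in that list too. Vip and Npy were also the only 2 of 24 interneuron markers with an unadjusted p under 0.05, against 483 higher and 349 lower of all 14217 genes. A count of 2 is too small to set this list apart from all genes. Of the 24 markers 12 were higher and 12 lower with a median of -0.0025 (16 higher with all 12 arrays). The inhibitory enzymes Gad1 and Gad2 differed by -0.02 and 0.07.

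The 250 bases before the transcription start of the peptide genes, and of Sprr1a which is described next, are shown because promoters of injury-induced genes are known to be read by factors that bind cyclic AMP response elements and AP-1 sites. They were read from RefSeq promoters of the GRCr8 build, on the gene's strand. Vip lies at chr1:44470230-44470479 on the plus strand, Gal at chr1:210084573-210084822 on the minus strand, Npy at chr4:80211861-80212110 on the plus strand and Sprr1a at chr2:180752626-180752875 on the minus strand. Capitals mark matches, on either strand, to TGACGTCA (a full cyclic AMP response element), TGANTCA (an AP-1 site), CCAAT, or TGACG (the response element's core, which lies within TGACGTCA and was added after the other 3 had been searched).
Vip: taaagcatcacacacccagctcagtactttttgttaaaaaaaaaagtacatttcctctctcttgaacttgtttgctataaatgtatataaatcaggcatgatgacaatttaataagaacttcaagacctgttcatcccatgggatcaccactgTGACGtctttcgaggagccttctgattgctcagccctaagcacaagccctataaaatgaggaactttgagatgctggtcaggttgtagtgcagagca
Gal: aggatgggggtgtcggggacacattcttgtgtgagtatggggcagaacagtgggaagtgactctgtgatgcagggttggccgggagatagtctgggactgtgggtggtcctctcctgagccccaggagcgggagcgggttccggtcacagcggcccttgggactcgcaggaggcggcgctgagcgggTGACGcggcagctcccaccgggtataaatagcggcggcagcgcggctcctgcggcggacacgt
Npy: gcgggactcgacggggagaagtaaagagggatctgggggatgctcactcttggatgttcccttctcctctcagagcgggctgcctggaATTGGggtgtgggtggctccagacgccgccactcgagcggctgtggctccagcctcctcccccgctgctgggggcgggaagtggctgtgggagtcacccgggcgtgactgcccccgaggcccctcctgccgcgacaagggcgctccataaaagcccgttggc
Sprr1a: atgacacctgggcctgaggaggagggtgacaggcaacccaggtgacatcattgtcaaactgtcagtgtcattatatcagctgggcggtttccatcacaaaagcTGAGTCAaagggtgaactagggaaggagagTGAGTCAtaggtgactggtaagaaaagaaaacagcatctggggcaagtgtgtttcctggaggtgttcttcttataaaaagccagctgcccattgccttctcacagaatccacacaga
None of the 4 holds TGACGTCA, which 1.59% of the 33469 promoters of this length do. Vip and Gal each hold 1 TGACG, against 18.2% of all promoters. Npy holds 1 CCAAT in the reverse direction, against 34%, and Sprr1a holds 2 TGANTCA matches, both TGAGTCA, against 6.34% with at least 1. A match describes these letters only. The 4 motifs were also looked for in the promoter of Il24, which holds 1 CCAAT and none of the others.

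Other genes known from axotomised neurons were higher late by less. Il24, a cytokine of the interleukin 10 family, was at 3.61 to 3.63 at day 1, 3.65 to 3.69 at day 3, 3.78 to 3.99 at day 7 and 3.98 to 4.13 at day 14, near the floor of the scale throughout. Its pools did not overlap with 11 or with 12 arrays, and it had the smallest adjusted p of the named genes (difference 0.31, SE 0.05, adjusted p = 0.398); the control arrays lay at 3.59 to 3.71. Sprr1a, a small proline-rich protein of squamous epithelium and of regenerating peripheral neurons, was at 3.95 to 4.17 at day 1 and 3.84 to 3.97 at day 3. At day 7 it was at 3.80, 4.20 and 4.84 and at day 14 at 4.73, 4.58 and 4.21, so the pools overlapped through day7 replicate 1 (difference 0.37, SE 0.15, adjusted p = 0.806). Gap43, the growth cone protein, differed by 0.09 (SE 0.04, adjusted p = 0.853), with 1 of its 2 probe sets of that sign.

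Of the 37 matched axotomy effectors, 22 were higher and 15 lower with a median of 0.01, and 18 were higher with all 12 arrays. The only ones of an unadjusted p under 0.05 were Csrp3, Sprr1a, Il24, Ecel1, a peptidase induced by nerve injury (0.23), and Gap43. All 5 were higher by their brightest probe sets, against 483 higher and 349 lower of all 14217 genes. Of the transcription factors of axotomy 6 of 19 were higher and 13 lower with a median of -0.07, and with all 12 arrays 9 were higher with a median of -0.04. Atf3, the factor most widely used to mark injured neurons, was at 7.16, 7.17 and 8.64 at day 1, 6.82, 6.76 and 7.11 at day 3, 6.36, 6.83 and 8.24 at day 7 and 7.43, 7.90 and 7.30 at day 14. Every one of these arrays lay above the highest control array (6.11), and the pools overlapped almost wholly, with a difference of -0.04 (SE 0.34, adjusted p = 0.999) that was 0.07 with 12 arrays. Jun, its partner in AP-1 dimers, differed by -0.15 (SE 0.07) and Stat3, the transducer of interleukin 6 signals, by -0.24 (SE 0.08), with adjusted p of 0.851 and 0.765. All 3 probe sets of Jun were lower late, another of them by -0.23 (limma adjusted p = 0.631).

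The genes of antigen presentation on class II molecules were the next group with large differences. Cd74, the invariant chain that escorts class II molecules, was at 8.28, 8.25 and 8.84 at day 1, 8.64, 8.62 and 9.37 at day 3, 8.95, 9.10 and 9.33 at day 7 and 9.86, 9.12 and 9.58 at day 14. The third array of day 3 lay within the late range, and the day 1 arrays lay below every late array. The difference was 0.70 (SE 0.20, adjusted p = 0.724), and the control arrays, at 9.17 to 9.42, lay beside the late pool. RT1-Da, a class II alpha chain, differed by 0.66 (SE 0.21, adjusted p = 0.765), RT1-Bb by 0.67, RT1-Db1 by 0.61 and RT1-Ba by 0.67, the last being 0.13 with all 12 arrays. In the list of class II and class I genes 12 of 15 matched members were higher, with a median of 0.09 (11 with all 12 arrays, 0.08). The class I light chain B2m (0.02) and the transporters Tap1 (-0.01) and Tap2 (-0.03) differed by less.

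Several macrophage genes were lower in the late pool. Gpnmb, a glycoprotein of phagocytic macrophages and microglia, was at 7.76, 7.89 and 7.65 at day 1, 7.28, 7.20 and 7.85 at day 3, 7.15, 7.23 and 7.04 at day 7 and 6.82, 6.98 and 6.94 at day 14. The difference was -0.57 (SE 0.13, adjusted p = 0.599), and the control arrays lay at 6.64 to 7.03. Mrc1, the mannose receptor of perivascular macrophages, differed by -0.43 (SE 0.12), Cd163, the haemoglobin scavenger receptor, by -0.40 (SE 0.11) and C1qb of the complement by -0.36 (SE 0.15). Mrc1 was at -0.17 and Cd163 at -0.22 with all 12 arrays. Over the 24 matched markers of microglia and macrophages 17 were lower and 7 higher with a median of -0.04, beside 6471 lower and 7746 higher of all 14217 genes. With all 12 arrays 12 of the 24 were higher and the median was 0.01, so the list had no direction there. The mean level of these markers was 6.96 to 7.13 at day 1, 6.76 to 7.13 at day 3, 6.80 to 6.86 at day 7 and 6.89 to 6.98 at day 14, where day14 replicate 2 had 7.21.

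Markers of blood moved with the late pool. Of 7 matched blood genes 6 were higher with 11 and with 12 arrays, with a median difference of 0.39: S100a9, a calcium-binding protein of neutrophils, by 0.68, S100a8 by 0.63, Alas2, which starts haem synthesis in red cell precursors, by 0.41 (SE 0.11), haemoglobin beta (Hbb) by 0.39 (SE 0.13) and Ahsp, the chaperone of alpha haemoglobin, by 0.26. The mean level of the list was 7.04 to 7.38 at day 1, 7.13 to 7.28 at day 3, 7.34 to 7.94 at day 7 and 7.25 to 7.84 at day 14 (8.10 on day14 replicate 2), and the control arrays alone spanned 6.68 to 7.80. No list member was at 0, since RMA signals have no zero. The part of blood in the differences of other genes was not tested.

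Genes of the circadian clock were also unequal between the pools. Dbp, a transcription factor at the output of the clock, was at 5.88, 6.06 and 7.18 at day 1, 6.86, 6.74 and 7.08 at day 3, 7.70, 7.56 and 8.02 at day 7 and 7.36, 6.81 and 7.70 at day 14, where 6.81 is the array with broken RNA. Without it the pools did not overlap, and the difference was 1.03 (SE 0.22, adjusted p = 0.540). The 4 control arrays spanned 6.65 to 8.07, wider than either pool. Of 19 clock genes 14 were higher, with a median of 0.07 (11 with all 12 arrays, 0.02). Nr1d2, a repressor of the clock loop, differed by 0.38, Tef, a relative of Dbp, by 0.28 and Nr1d1 by 0.29, while the activators Bmal1 (-0.36) and Clock (-0.25, SE 0.06) were lower, the latter with 2 of its 4 probe sets of that sign. Tef was at 0.04 and Clock at -0.01 with all 12 arrays, since day14 replicate 2 had 8.12 for Clock.

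Acute phase genes were lower late without passing the test between the pools, and as a list they were lower only against day 1. Chi3l1, a secreted chitinase-like protein of reactive astrocytes, was at 5.97 ± 0.26 at day 1, 5.29 ± 0.60 at day 3 and 4.77 ± 0.23 at day 7 (SD, n = 3 each). At day 14 it was at 5.17, 5.84 and 5.09, the middle value being that of the array with broken RNA. The difference was -0.72 (SE 0.22, adjusted p = 0.765), and -0.56 with all 12 arrays. Cd14, the co-receptor for bacterial lipopolysaccharide, differed by -0.51 (SE 0.15). In the list 22 of 32 were lower and 10 higher with a median of -0.07, and with all 12 arrays 14 were higher with a median of -0.05. The mean level of the list was 6.33 to 6.39 at day 1 and 5.95 to 6.17 at day 3. It was 5.98 to 6.10 at day 7 and 6.05 to 6.11 at day 14, with 6.20 on day14 replicate 2. Against day 3 the median difference was 0.01 at day 7 and 0.09 at day 14 (11 arrays). Gfap, the astrocyte filament, showed how the days of a pool can cancel: it was at 5.77, 5.91 and 5.77 at day 1, 4.93, 4.78 and 5.24 at day 3, 5.11, 5.15 and 5.62 at day 7 and 6.08, 5.60 and 5.96 at day 14. Days 1 and 14 were high and days 3 and 7 low, and the pooled difference was 0.19 (SE 0.23, adjusted p = 0.973).

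Other lists had members with small differences. Cholesterol synthesis genes were higher in 16 of 19, with small differences led by Mvd, Mvk, Insig1, which holds back the sterol sensor (0.15), and Fdft1, squalene synthase (0.14), and a median of 0.09 that was -0.0020 with all 12 arrays, where only 9 were higher. Cell cycle genes were higher in 20 of 26 with a median of 0.07 (22 with all 12 arrays, 0.11), led by Ccnb2 (0.24) and Cdk1 (0.19). Layer V projection neuron markers split 11 to 11, and with all 12 arrays 15 of 22 were higher with a median of 0.06; Bcl11b, the factor that specifies corticospinal neurons, differed by 0.06 (SE 0.09), with 1 of its 3 probe sets of that sign. Myelin genes split 12 higher to 13 lower (14 higher with all 12 arrays), and Mbp differed by -0.03, or by -0.66 with the array of broken RNA. Fos, the activity gene, differed by -0.02 (SE 0.12). No member of any of the 36 lists was called.

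**Figure D2:**
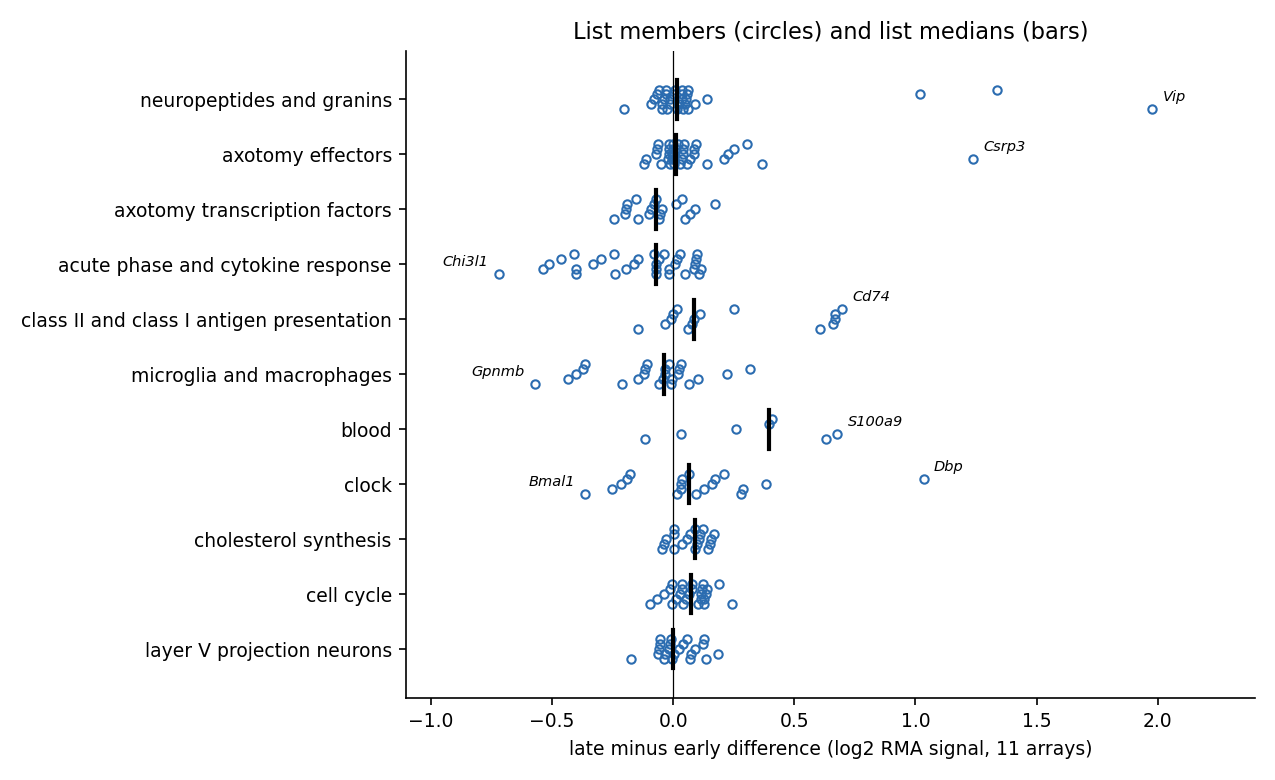
Late minus early difference in log2 RMA signal (x axis, 11 arrays) of each matched member of 11 gene lists (y axis), 1 circle per gene by its brightest probe set, with black bars for list medians. Vip at 1.98, Csrp3 at 1.24 and Dbp at 1.03 lie far to the right of their lists, whose medians are between 0.01 and 0.07.

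Genes lower in the late pool by the smallest p had roles outside these lists. Kif5c, a motor protein of axonal transport, was at 9.23, 8.92 and 8.65 at day 1, 8.88, 9.16 and 8.73 at day 3, 8.45, 8.64 and 8.34 at day 7 and 8.12, 9.24 and 8.28 at day 14. Without the value of 9.24, from day14 replicate 2, the pools did not overlap and the difference was -0.56 (SE 0.11, adjusted p = 0.540), against -0.42 with it. Of its 3 probe sets 2 were lower. Pde4b, a phosphodiesterase that breaks down cyclic AMP, differed by -0.42 (SE 0.08), Gpatch8 by -0.62 (SE 0.13) and the zinc finger gene Zfp451 by -0.43 (SE 0.08), each with adjusted p = 0.540; with all 12 arrays they were at -0.56, -0.58 and -0.32. When day1 replicate 3 was left out of the 11 arrays these 3 were among 16 probe sets that passed, all lower late: Pde4b at -0.49 (adjusted p = 0.0305), Zfp451 at -0.49 (adjusted p = 0.0384) and Gpatch8 at -0.71 (adjusted p = 0.0410). Rab8b, a small GTPase of vesicle traffic (-0.18, or -0.41 with all 12 arrays), and Arg2, the mitochondrial arginase (-0.18), had pools that did not overlap with 11 or 12 arrays.

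The comparisons between single days showed which day carried a difference. With 11 arrays and 4 day means, limma called 86 probe sets between day 7 and day 1 (0.277%), 25 (0.0805%) higher and 61 (0.197%) lower at day 7. Between day 14 and day 1 it called 55 (0.177%), 10 (0.0322%) higher and 45 (0.145%) lower at day 14. At an unadjusted p under 0.05 these 2 comparisons held 7.82% and 7.02% of all probe sets. It called 6 between day 14 and day 3 (0.0193%) and 0 between day 7 and day 3 (0%), where 1647 (5.31%) had an unadjusted p under 0.05. Within the pools it called 150 between day 3 and day 1 (0.483%), 55 (0.177%) higher and 95 (0.306%) lower at day 3, and 2 between day 14 and day 7 (0.00644%). With all 12 arrays these counts were 2 (0.00644%), 1 (0.00322%), 0, 0, 4 (0.0129%, 3 or 0.00966% of them lower) and 0. For the 3 counts of 0 the unadjusted p was under 0.05 for 3412 (11%), 428 (1.38%) and 1945 (6.27%) probe sets, and for the other 3 it was for 2.18%, 7.01% and 3.48%. The day 1 arrays differed from both late days and from day 3, and these comparisons share the day 1 arrays.

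**Figure D3:**
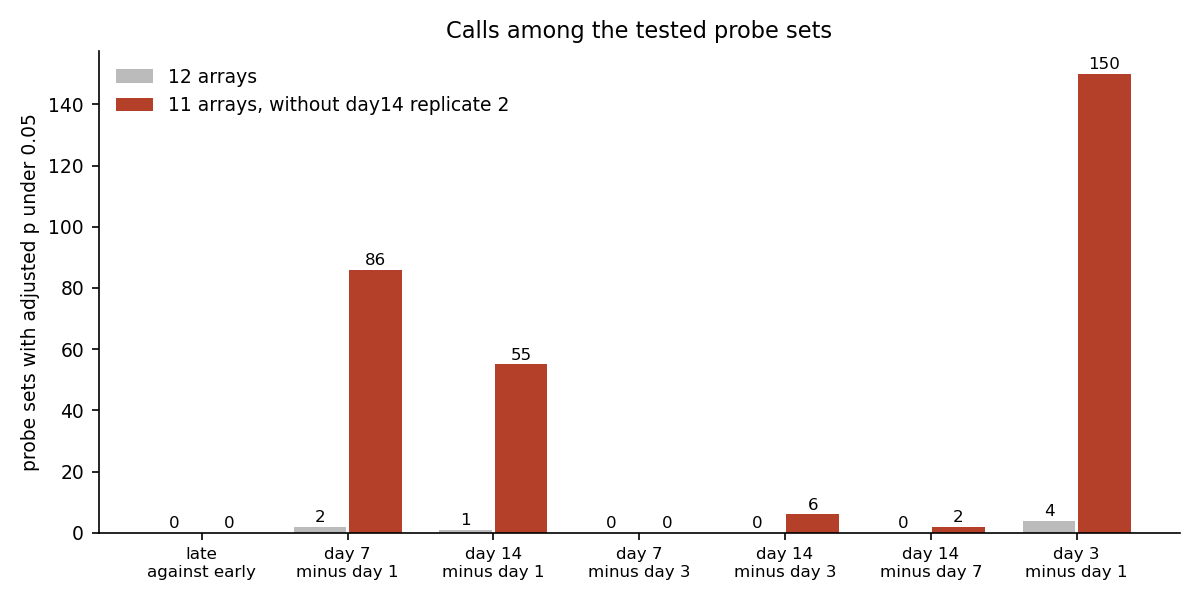
Number of probe sets with an adjusted p under 0.05 (y axis) in the pooled comparison and in 6 comparisons of single days (x axis), with all 12 arrays (grey) and without day14 replicate 2 (red). The largest counts, 86, 55 and 150, are those against day 1.

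The counts depended on single arrays as well. Leaving out 1 more array at a time moved the 86 between 18 (without day7 replicate 2) and 155 (without day1 replicate 3), and the 55 between 0 (without day14 replicate 3) and 137 (without day1 replicate 3). Without day14 replicate 1 the 55 became 6; in both of these fits 1 array of day 14 remains and is taken to vary like the others. Without day1 replicate 1, day1 replicate 2, day7 replicate 1 or day7 replicate 3 the 86 became 42, 28, 23 and 48, and without day1 replicate 1 or 2 the 55 became 28 and 22.

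Genes lower at the late days than at day 1 included those of the acute phase, of glucocorticoid and metal responses and of vessels and meninges. Of the genes named from single days, only Igfbp6, Agt and Ifitm3 were to be named whatever they showed. Mt2A, Fabp7, Cxcl9, Il24, Rem2, Psat1, Vcl, Aldh1a1, Aspn and Col15a1 came through the naming rule. That rule takes the smallest p of the pooled fits in these same arrays. The others were chosen after their values were seen. Agt, angiotensinogen, which brain astrocytes secrete, was at 5.85, 6.06 and 5.74 at day 1, 4.88, 4.97 and 4.73 at day 3, 5.19, 4.95 and 4.88 at day 7 and 4.82, 4.86 and 4.71 at day 14. Every array after day 1 lay below the day 1 arrays, and most lay near the control range of 4.81 to 4.92. Agt fell from day 1 to day 7 by 0.88 (SE 0.10, adjusted p = 0.00452) and from day 1 to day 14 by 1.12 (SE 0.11, adjusted p = 0.003835). The pooled difference was -0.46 (adjusted p = 0.875), since day 3 lies with the late days.

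Igfbp6, a binding protein that restrains insulin-like growth factor 2, was at 10.80, 11.02 and 10.82 at day 1 and between 9.64 and 10.25 on the 9 later arrays. It fell by 1.11 to day 7 (SE 0.09, adjusted p = 0.000689) and by 0.99 to day 14 (SE 0.10, adjusted p = 0.00303), and its other probe set gave -1.14 and -0.97. Lbp, which hands lipopolysaccharide to Cd14, fell by 0.82 (adjusted p = 0.00774) and 1.04 (adjusted p = 0.00571). Steap4, a metalloreductase induced by interleukin 6, fell by 1.10 and 0.99, Spon2, a secreted matrix protein, by 0.87 and 0.76, and Cebpd, a transcription factor of the acute phase, by 0.57 and 0.49. Ifitm3, an interferon-induced membrane protein, fell to day 7 by 1.02 (SE 0.14, adjusted p = 0.0119), while at day 14 its difference was -0.63 (adjusted p = 0.252). With 11 arrays 8 of the 32 acute phase genes were called lower at day 7 and 6 at day 14 than at day 1, and none higher. Of all probe sets 0.197% and 0.145% were called lower. This list was chosen with earlier results of these data known. With all 12 arrays the only calls were Spon2 and Igfbp6 from day 1 to day 7 and Agt from day 1 to day 14. No other gene named here from these 2 contrasts passed then. At day 7 limma's adjusted p with 12 arrays was 0.162 for Ifitm3, 0.223 for Fabp7 and 0.224 for Rem2.

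Glucocorticoid targets gave 3 lower members of 21 at day 7 and 4 at day 14 with 11 arrays, against 0.197% and 0.145% of all probe sets. This list too was chosen with earlier results known. The few calls left with all 12 arrays are those given above. Mt2A, a metallothionein, fell by 0.72 (SE 0.07, adjusted p = 0.00268) and 0.70 (SE 0.08, adjusted p = 0.00776) with 11 arrays, and day14 replicate 2, at 9.04, lay just above the day 1 arrays, at 8.71 to 9.02. Fabp7, the fatty acid binding protein of radial glia and astrocytes, fell by 0.90 to day 7 (SE 0.09, adjusted p = 0.00280) and differed by -0.35 at day 14 (adjusted p = 0.381). Cd163 fell by 0.51 and 0.80, and the complement gene C1qc by 0.77 to day 7. Among meningeal and vessel genes, Crabp2, which binds retinoic acid, fell by 0.65 and 0.62, Enpep, an aminopeptidase of pericytes, by 0.66 and 0.70, and a probe set of Col4a1, of basement membrane, by 0.35 and 0.41; the brightest probe set of Col4a1 was not among the calls. Other members went the other way without a call: Aldh1a1 of the meningeal list was above day 1 by 0.72 and 0.92, and Aspn by 0.35 and 0.61. In the pooled comparison 13 of 26 meningeal genes were higher and 13 lower (11 higher with all 12 arrays). Of 25 vessel genes 13 were higher and 12 lower (10 higher with all 12 arrays). The mean level of the meningeal list was 8.09 to 8.49 at day 1 and 7.92 to 8.20 at day 3. It was 8.03 to 8.21 at day 7 and 8.19 to 8.31 at day 14. The part of the meninges in these differences was not tested.

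Fewer genes were higher at the late days than at day 1. G0s2, which restrains the lipase of stored fat, was at 6.31, 6.02 and 6.27 at day 1, 6.70, 6.76 and 6.70 at day 3 and 7.32, 7.26 and 7.08 at day 7, and rose by 1.02 from day 1 to day 7 (SE 0.11, adjusted p = 0.00297). At day 14 it was at 6.55, 7.67 and 6.96, and the control arrays spanned 6.43 to 7.57. Cxcr4, the receptor of the chemokine Cxcl12, was at 7.04, 7.14 and 7.51 at day 1 and between 7.80 and 7.94 on the 9 later arrays, and rose by 0.64 to day 7 (adjusted p = 0.0297) and 0.67 to day 14 (adjusted p = 0.0464). A probe set of Col15a1, a collagen of vessel walls, rose by 0.78 and 1.03, while its other probe set gave 0.69 and 0.81 and did not pass (adjusted p = 0.201 and 0.195). The small GTPase Rem2, an inhibitor of calcium channels, rose by 0.42 to day 7 (SE 0.06), and 1 probe set of Reln, the guidance protein reelin, by 0.50, while another gave 0.40 and did not pass (adjusted p = 0.271). Cxcl9, a chemokine induced by interferon gamma, rose by 0.77 to day 14 (SE 0.12, adjusted p = 0.0305), and Il24 by 0.40 (SE 0.07, adjusted p = 0.0468).

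**Figure D4:**
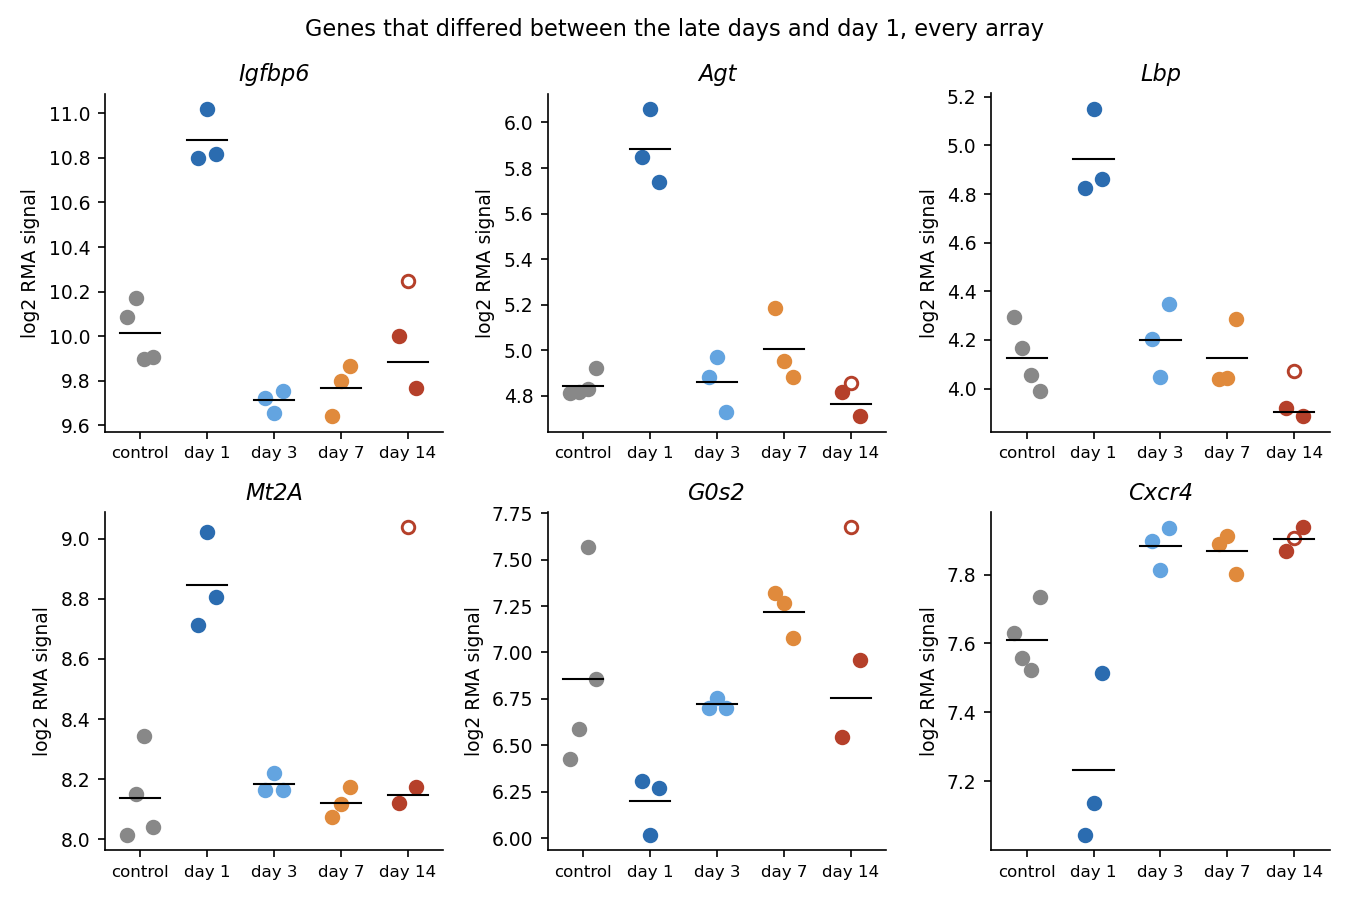
Log2 RMA signal (y axis) of Igfbp6, Agt, Lbp, Mt2A, G0s2 and Cxcr4 on each array of the control, day 1, day 3, day 7 and day 14 groups (x axis), 1 point per array, with bars for group means without day14 replicate 2 (open circle). In Igfbp6, Agt and Lbp the day 1 arrays lie above all others; in Cxcr4 they lie below all others.

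Day 3 sided with the late days in most of these. Of the 86 probe sets called between day 7 and day 1, the day 3 mean lay nearer to day 7 than to day 1 in 80 (93%), beside 57% of all probe sets, and the control mean lay nearer to day 7 in 75 (87.2%), beside 53%. Of the 55 called between day 14 and day 1 the day 3 mean lay nearer to day 14 in 47 (85.5%), beside 45.8%. These shares rest on the same day 1 arrays that chose the probe sets and are a description. Psat1, an enzyme of serine synthesis, had pools that did not overlap with 11 arrays. It fell by 0.41 to day 7 and by 0.43 to day 14, and day 3 lay between (8.73 to 8.76, against 8.96 to 9.10 at day 1 and 8.52 to 8.66 late).

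The calls against day 3 were few. The 6 probe sets lower at day 14 than at day 3 included those of Ddx6, an RNA helicase of P-bodies (-1.40, SE 0.17, adjusted p = 0.0328), Nufip2, an RNA-binding protein (-1.12, adjusted p = 0.0372), Abca1, the cholesterol exporter (-0.75, adjusted p = 0.0328), and Vcl, vinculin of cell adhesions (-0.59, SE 0.07, adjusted p = 0.0328), beside 2 without a symbol. Ddx6 was at 6.05, 5.47 and 5.63 at day 3, between 4.52 and 4.77 at day 1 and between 4.24 and 4.74 late, while the control arrays spanned 4.31 to 6.17. Without any 1 of the day 3 or day 14 arrays the count was 0 or 1. Between the late days the calls were Fmo2, a flavin monooxygenase (-0.90 from day 7 to day 14, adjusted p = 0.00309), and Nat8f3 (-0.72, adjusted p = 0.00309), chosen after their values were seen because they were the only 2. On day14 replicate 2, which these calls leave out, Fmo2 was at 6.64 and Nat8f3 at 5.30, above all day 7 arrays (at most 5.86 and 5.08).

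Differences from arrays that are not shared can be set against each other. Day 7 minus day 1 and day 14 minus day 3 use different arrays, and across 31042 probe sets (11 arrays) they had a Pearson r of -0.061 and the same sign in 44.1%. Day 14 minus day 1 and day 7 minus day 3 had r = 0.155 and the same sign in 52.3%. Probe sets are not independent and were normalized together, and these values are descriptions. Of 388 probe sets at an unadjusted p under 0.05 in both differences of the first pair, 120 had the same sign and 268 the opposite sign; of 251 in the second pair, 178 had the same sign and 73 the opposite.

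The peptide genes and Csrp3 were higher in all 4 differences, which share arrays in pairs. The pooled difference comes from the same arrays. Genes with a large pooled difference therefore tend to keep its sign in all 4, and the shared sign is only a description. It was not particular to these genes. In all 4 differences 21 probe sets were higher and 35 lower at limma's unadjusted p under 0.05, and Vip, Gal, Npy and Csrp3 were among the 21. Vip was higher by 1.44 at day 7 and by 2.56 at day 14 than at day 1, and by 1.62 and 2.74 than at day 3 (SE 0.61 for day 7 and 0.68 for day 14). Gal was higher by 0.87 and 1.22 than at day 1 and by 0.88 and 1.24 than at day 3. Npy gave 1.18, 1.76, 1.03 and 1.61 in the same order, and Csrp3 0.89, 1.84, 0.83 and 1.78. None passed the test in any of these 4 contrasts, with adjusted p between 0.154 and 0.941. Agt, by contrast, gave -0.88 and -1.12 against day 1 but 0.15 and -0.10 against day 3, and Igfbp6 gave -1.11 and -0.99 against day 1 but 0.06 and 0.17 against day 3.

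**Figure D5:**
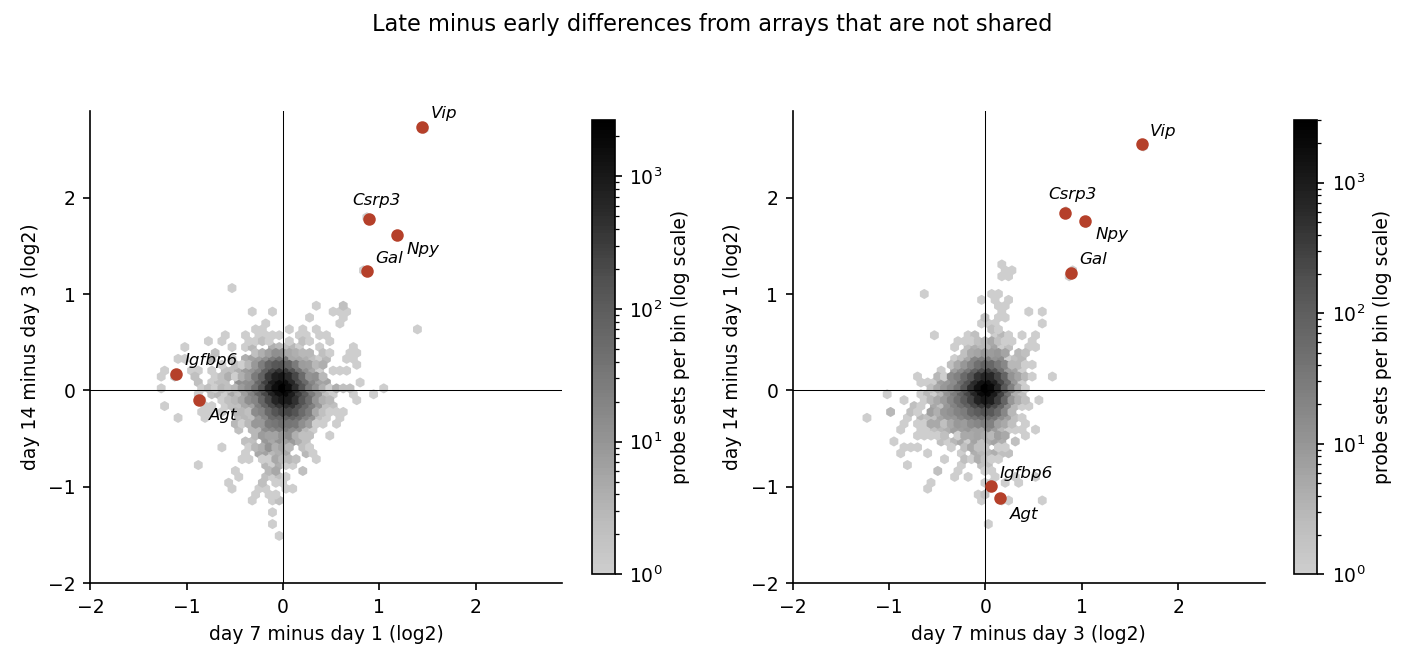
Log2 differences of all 31042 probe sets (11 arrays) for day 14 minus day 3 (y axis) against day 7 minus day 1 (x axis, left panel) and for day 14 minus day 1 (y axis) against day 7 minus day 3 (x axis, right panel), with shading for probe sets per bin on a log scale. Vip, Gal, Npy and Csrp3 lie in the upper right of both panels, while Igfbp6 and Agt lie near 0 on the axis that uses day 3.

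The control arrays sided with either pool. Over all probe sets the control mean lay nearer to the late mean in 46.5%, and among those at an unadjusted p under 0.05 in 46.1% of the 903 higher and 46% of the 906 lower. Where the difference was also at least 0.5 in size, it lay nearer to the late mean in 70% of 20 higher and 60% of 30 lower probe sets. Among the named genes it lay nearer to the early mean for Vip, Gal, Npy, Csrp3, Il24, Sprr1a, Kif5c and Psat1. It lay nearer to the late mean for Cd74, RT1-Da, Gpnmb, Dbp, Chi3l1, Cd14 and Agt.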

How the data were processed

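RNA was measured on Affymetrix arrays, 1 per sample, 19 in all (4 control and 3 at each of 5 times). The authors deposited 1 log2 value per probe set and array, made with RMA according to the submitters' processing notes, which name no version. Since RMA equalises the distributions of the arrays, a change common to all transcripts is removed, and the number of arrays limits the precision. Scan dates were not analysed here.

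The members and the gene lists were chosen with earlier results of these data known. Of 31099 probe sets 57 array controls were left out. Symbols came from the platform annotation: 20826 probe sets had 1 symbol, 20758 of these updated through the gene ID and 2 through an accession against RefSeq genes of GRCr8, while 66 kept theirs; 436 had several and 9780 none. Each of 14217 genes stood in a list by its brightest probe set. Levels of different genes were set against each other only as percentiles in the tissue check.

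Tests used limma 3.58.1 under R 4.3.3 (eBayes, two-sided, Benjamini-Hochberg over 31042 probe sets, threshold 0.05), in a fit of 2 pools with 12 arrays (10 residual and 2.38 prior degrees of freedom) and with 11 (9 and 4.59), and in a fit of 4 day means. The script was tested on simulated data. A log2 difference is late minus early. Genes were named by a rule: for each fit up to 15 called genes in each direction by size, filled to 5 by smallest p where fewer than 5 passed; up to 4 called members of each list, or else the 2 of smallest p; and Atf3, Vip, Gal, Npy, Gap43, Sprr1a, Gfap, Agt, Igfbp6, Ifitm3, Cd74, Mbp, Fos and Bcl11b. Other list members and single-day genes were chosen after their values were seen. Alternatives were other normalizations, filters, variance models, weights, designs and covariates, and each array left out in turn. The labels' replicate numbers are shared by the days. Deviations of like-numbered arrays across the pools correlated by -0.322 to 0.312. Arrays of unlike number were not set beside them, so this range cannot show whether the numbers pair the samples. The main fits did not take them as pairs. Figures used matplotlib 3.10.9 (Python 3.11.15).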

Additional observations from a re-analysis of the deposited data

Results flagged for a closer look

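Array day14 replicate 2 lay far from the other late arrays in 32 of the 33 values that stood apart in the late pool of 6, over 90 named probe sets per pool. The rule sets a value apart in about 1 pool in 20 by chance for probe sets not picked by their values. Many of these 90 were named by a small p in the fit without this array, so that rate does not hold for them. Below the other 5 late arrays it was at 8.91 for Fdft1, 8.84 for Mbp, 4.81 for Pde4b, 9.18 for Hspa5, 8.56 for Bcas1, 6.40 for Phlda3, 8.70 for Bid, 6.15 for Ephb6, 9.32 for Chordc1, 5.81 for Pcsk2 and 6.77 for Rab8b. Above them it was at 4.12 for Drd1, 8.10 for Bdnf, 6.46 for Rgs5, 12.86 for Rps24, 10.98 for Cryab, 7.95 for Abcb1a, 7.89 for Hs3st1, 7.51 for Igfbp4, 9.02 for Psat1, 10.29 for Kcnq5, 5.25 for Pxmp4, 4.60 for Epha3, 10.84 for Gabbr2, 13.52 for Rps29, 9.04 for Mt2A, 11.47 for Sdhd, 4.58 for Top2a, 8.12 for Clock, 7.59 for Mrc1, 6.20 for Zbtb1 and 8.57 for Fa2h.

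The remaining value that stood apart in that pool was Jun at 9.55 on day14 replicate 3. Without day14 replicate 2, the late arrays that stood apart were day14 replicate 1 for Pxmp4 (4.44) and Zbtb1 (5.57) and day14 replicate 3 for Rps29 (13.26). In the early pool they were day1 replicate 3 for Atf3 (8.64), Jun (10.13) and Abcb1a (7.18), day1 replicate 2 for Gabbr2 (9.20), day3 replicate 2 for Egr2 (8.76) and day3 replicate 1 for Foxj1 (3.90).

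For 7 named genes the late pool differed from day 1 otherwise than from day 3, because day 3 minus day 1 itself passed limma's test with 11 arrays: Igfbp6 (-1.17), Ifitm3 (-1.07), Agt (-1.02), Gfap (-0.83), Mt2A (-0.66), Cryab (-0.48) and Rgs5 (-0.42).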

How the results depend on the processing

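The pooled comparison called 0 probe sets in all settings run with 12 arrays, and with 11 arrays under all but 2: leaving out 1 array at a time gave 0 to 16 calls, 16 without day1 replicate 3 and 4 without day7 replicate 1. With the replicate number as a block both pooled fits called 0, and the 11-array counts for day 7 against day 1, day 14 against day 1, day 14 against day 3 and day 3 against day 1 were 65, 23, 11 and 121, of which 55, 21, 3 and 102 were among the 86, 55, 6 and 150. With all 12 arrays the counts for day 7, day 14 and day 3 against day 1 were 2, 1 and 4, and leaving out 1 array at a time gave 0 to 86, 0 to 55 and 0 to 150; for day 14 against day 3 and against day 7 it gave 0 to 6 and 0 to 2. With 11 arrays the ranges were 18 to 155 (day 7 against day 1), 0 to 137 (day 14 against day 1), 0 to 1 (day 14 against day 3) and 25 to 185 (day 3 against day 1). Settings chosen after seeing the data gave, in the same order of 4 comparisons: array quality weights 250, 131, 57 and 406; a fit of only the 2 compared days 27, 0, 37 and 25; eBayes with trend and robust settings 109, 83, 29 and 225; quantile normalization again 92, 46, 10 and 159; and probe sets above the median only 89, 56, 0 and 166. The cause was not tested. Of 90 named values over 1954 settings 14 changed sign, in 7 genes. With all 12 arrays Fdft1 was -0.078, Atf3 0.066, Abcb1a 0.00077, Fos 0.127, Phlda3 -0.348, Ephb6 -0.014 and Kcnq5 0.014. With 1 more array left out Atf3 lay between -0.297 and 0.227 and Fos between -0.120 and 0.038. The settings for single days were run on the called genes of largest difference in each direction, with day 3 against day 1 among the comparisons. For these genes 713 settings kept direction and call and 360 lost the call with the same direction. They are not the set of genes named above from single days, so the counts give no rate for that set. A lone day 14 array is taken to vary like the others. Probe sets near the floor, such as Il24 and Gad1, can show only compressed differences.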
